A study of Mus musculus with 2 samples.

Results

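The genes described here were 10 genes of adipocyte identity and lipid handling, *Adipoq*, *Fabp4*, *Lpl*, *Cd36*, *Plin1*, *Plin4*, *Pparg*, *Cebpa*, *Lep* and *Lipe*. They were taken by name from a table of 49492 genes, and all 10 were found. No value entered the rule, but the set was drawn up with earlier results of these data known. The table held raw read counts of mammary basal cells, which form the contractile outer layer of mammary ducts and alveoli. CL basal came from wild-type mice given clodronate liposomes, which kill the macrophages that ingest them, and Ctrl basal came from wild-type control mice. The labels give both libraries as day 7. The control is labelled as untreated, and the series' design text gives it saline. By the study's methods the mice were females of 8 to 10 weeks, and liposomes were injected 3 times, every 2 days. The cells were sorted as CD24+ CD29hi cells after exclusion of CD45+, CD31+ and TER119+ cells, that is of leukocytes, endothelial cells and erythroid cells. The number of animals behind each library was not given in the sources used here.

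With 1 library per group, the differences have no replicate check, and no p-value is given. The libraries held 38962512 counts (CL basal) and 37846008 counts (Ctrl basal). Low counts were more often even than odd (68.7% and 67.9% of the values from 1 to 20), which is what counting both mates of a read pair would give at low counts. Of the 20 values of the adipocyte genes 18 were even, but most of the 20 lie above this range. Above 1000 counts, even values made up 49.9% and 49.7%, without such an excess. The 95% exact intervals were computed on counts divided by 2, the wider choice, and they cover counting error only. Levels are CPM (counts scaled to library size and composition) or, between genes, TPM (counts divided by exonic length and scaled to the same sum in each library). TPM does not carry the scaling for composition, so small differences between the libraries can change direction. *Pnpla2* had 37.55 CPM in CL basal against 37.65 in Ctrl basal, but 33.81 and 33.39 TPM. The log2 fold changes follow the scaling of CPM. A count of 0 still allows a level of up to 3 counts, which was 0.0780 CPM in CL basal against 0.0782 in Ctrl basal. This limit was set on counts as deposited and would lie higher on counts divided by 2. A total of 17356 genes reached 20 counts over the 2 libraries, and 9 of the 10 adipocyte genes were among them. The exception was *Adipoq*.

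White adipocytes store triglyceride in a lipid droplet, and the mammary epithelium lies embedded in a fat pad made of them. In the differentiation of these cells the transcription factors PPARG and CEBPA activate the genes of lipid uptake, storage and release. LPL frees fatty acids from lipoproteins, CD36 takes them up and FABP4 binds them in the cytosol. Perilipins coat the droplet, hormone-sensitive lipase (*Lipe*) breaks its lipid down, and adiponectin and leptin are secreted hormones. *Fabp4*, *Cd36* and *Lpl* are not restricted to adipocytes, since capillary endothelium and macrophages also use them. *Cebpa*, *Lipe*, *Cd36* and *Lpl* are also known from epithelial cells.

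The promoters of the 3 genes with the most negative difference between the libraries, *Plin1*, *Pparg* and *Lep*, are shown because each held a motif of the C/EBP factors, to which *Cebpa* belongs. The motif was searched as TTGCNNAA and on the other strand as TTNNGCAA, and it was chosen after the values were known. Each line gives the 250 bases before a RefSeq gene start (build GRCm38.p6), 5′ to 3′ on the strand of the gene, with matches in capitals. *Lep* lies at chr6:29059971-29060220 (plus strand), *Plin1* at chr7:79732777-79733026 (minus strand) and *Pparg* at chr6:115421816-115422065 (plus strand). For *Pparg* this is the most downstream of its 3 starts in that table.
Lep: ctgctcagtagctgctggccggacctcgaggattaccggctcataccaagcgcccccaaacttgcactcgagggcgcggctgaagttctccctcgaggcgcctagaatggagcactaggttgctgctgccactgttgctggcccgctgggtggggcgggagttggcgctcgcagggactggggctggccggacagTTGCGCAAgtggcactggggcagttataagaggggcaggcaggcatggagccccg
Plin1: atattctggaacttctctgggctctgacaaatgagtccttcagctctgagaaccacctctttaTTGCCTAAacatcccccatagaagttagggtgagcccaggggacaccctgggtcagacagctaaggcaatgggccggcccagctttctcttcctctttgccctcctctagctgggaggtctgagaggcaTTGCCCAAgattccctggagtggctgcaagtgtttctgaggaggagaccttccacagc
Pparg: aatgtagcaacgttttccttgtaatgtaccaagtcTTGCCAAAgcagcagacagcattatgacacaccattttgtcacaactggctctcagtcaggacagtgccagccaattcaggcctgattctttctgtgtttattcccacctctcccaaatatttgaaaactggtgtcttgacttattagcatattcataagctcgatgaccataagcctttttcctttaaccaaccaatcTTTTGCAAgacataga
The match in *Lep* began 55 bases before the start. Those of *Plin1* began 187 and 58 bases before it, and those of *Pparg* 215 and 16 bases before it. Promoters of 8 of the 10 adipocyte genes were in the table (not *Fabp4* and *Lpl*), with 11 starts. Of the 11 windows, 3 held the motif, and those of the other *Pparg* starts did not. The motif occurred in 9.57% of 32817 such windows of the genome. The genes shown and the motif were both picked after the values were known, so these shares are no test of a link. A match is a run of letters and not evidence of binding. The deposited counts are per gene, so reads from the different starts of *Pparg* were not separated.

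The adipocyte genes did not share a level. *Fabp4*, *Cebpa* and *Cd36* had the most counts, and *Plin1* and *Adipoq* had the fewest. By TPM the highest was *Fabp4*, with 54.6 in CL basal against 72.3 in Ctrl basal. *Cebpa* followed with 35.6 and 31.2, and *Cd36* with 14.4 and 16.5. These 3 genes kept the same order in both libraries. *Lipe* had 5.14 and 4.22 TPM and *Pparg* 3.02 and 5.86, so *Lipe* was the higher of the pair in CL basal and *Pparg* in Ctrl basal. *Lpl* (1.19 and 1.60 TPM), *Lep* (1.10 and 1.83) and *Plin4* (1.05 and 1.23) lay close together. *Adipoq* (0.512 and 0.253) and *Plin1* (0.182 and 0.451) were lowest, and the lower of the pair was *Plin1* in CL basal and *Adipoq* in Ctrl basal. For comparison, the basal keratin *Krt14* stood at 9366 and 8372 TPM. The counted length matters for *Fabp4*: its 4489 exonic bases are its whole genomic span, because a retained-intron transcript is annotated. Over the 896 bases of its principal spliced transcript it would stand at 273 and 362 TPM. *Lpl* (10478 counted bases, 4115 in the principal transcript) would stand at 3.02 and 4.07, above *Lep* at 1.13 and 1.89.

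**Figure D1:**
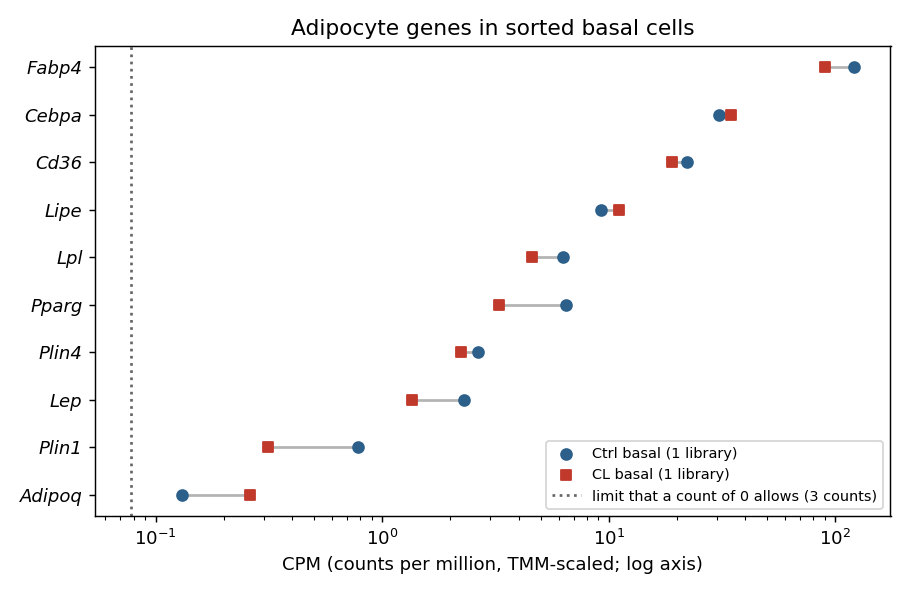
CPM of the 10 adipocyte genes (log axis) in the CL basal library (squares) and the Ctrl basal library (circles). The dotted line is the level of 3 counts, as deposited, that a count of 0 still allows. *Fabp4* stands at 90.1 and 121 CPM and *Adipoq* at 0.260 and 0.130, and *Cebpa*, *Lipe* and *Adipoq* are the genes with the higher value in CL basal.

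Both adipokine genes were scarce. *Adipoq* (chromosome 16, 23146536 to 23158028, GRCm38), which encodes adiponectin, had 10 counts in CL basal against 5 in Ctrl basal. This is 0.260 and 0.130 CPM, near the limit of 0.078 on counts as deposited. With counts divided by 2, the 5 counts of Ctrl basal would not exceed the limit of 3. The interval of the log2 fold change of *Adipoq* ran from -1.47 to 3.97, so no difference was detectable at this depth. *Lep* (chromosome 6, 29060220 to 29073877), which encodes leptin, had 52 and 88 counts, or 1.35 and 2.29 CPM. The CL basal library was the lower, with a log2 fold change of -0.74 (95% interval -1.52 to -0.03).

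The 3 genes of fatty acid uptake and binding were lower in CL basal, each by less than 2-fold. *Fabp4* (chromosome 3, 10204088 to 10208576), the cytosolic fatty acid binding protein, had 3465 counts in CL basal against 4648 in Ctrl basal. The log2 fold change was -0.43 (-0.52 to -0.34), the narrowest interval of the 10 genes. *Cd36* (chromosome 5, 17781690 to 17888801), the fatty acid translocase, had 732 and 850 counts and a log2 fold change of -0.22 (-0.42 to -0.01). *Lpl* (chromosome 8, 68880491 to 68907448), lipoprotein lipase, had 176 and 240 counts and a log2 fold change of -0.45 (-0.86 to -0.04). Together the 3 genes summed to 114 CPM in CL basal and 150 CPM in Ctrl basal.

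None of the 3 genes of the lipid droplet and its breakdown had an interval clear of 0. *Plin1* (chromosome 7, 79720218 to 79732903), the perilipin typical of fat cells, had 12 counts in CL basal against 30 in Ctrl basal. Its log2 fold change of -1.20 was past 2-fold, but the interval of -2.98 to 0.12 reached above 0. *Plin4* (chromosome 17, 56100591 to 56109803), another perilipin, had 86 and 102 counts and a log2 fold change of -0.24 (-0.87 to 0.36). *Lipe* (chromosome 7, 25379527 to 25398710) had 428 counts in CL basal against 356 in Ctrl basal, or a log2 fold change of 0.26 (-0.03 to 0.56). For *Plin4* no difference was detectable at this depth. For *Plin1* and *Lipe* the call depends on the halving of counts: on counts as deposited the intervals were -2.43 to -0.32 and 0.06 to 0.47, both without 0. Of the 5886 exonic bases of *Lipe*, 918 are shared with *4732471J01Rik* on the other strand (258 and 220 counts), and with no statement on strand their reads cannot be told apart.

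The intervals of the transcription factors did not overlap, with *Pparg* the lower. *Pparg* (chromosome 6, 115360951 to 115490399), the receptor that drives adipocyte differentiation, had 126 counts in CL basal against 248 in Ctrl basal. This is 3.28 and 6.47 CPM, a log2 fold change of -0.97 (-1.44 to -0.53), just short of 2-fold. Scaled by total counts it was -1.01 and so past 2-fold. *Cebpa* (chromosome 7, 35119293 to 35121928) had 1328 and 1178 counts and a log2 fold change of 0.17 (0.01 to 0.33). This interval reached below 0 with scaling by total counts (-0.03 to 0.29) and with TMM on genes of at least 100 counts (-0.0026 to 0.32), so the call depends on the scaling. It shares 51 of its 2636 exonic bases with *Gm45091* on the other strand (116 and 75 counts). *Plin4* shares 6 of its 5777 exonic bases with *Hdgfrp2* on the other strand, which had 3606 and 4359 counts.

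**Figure D2:**
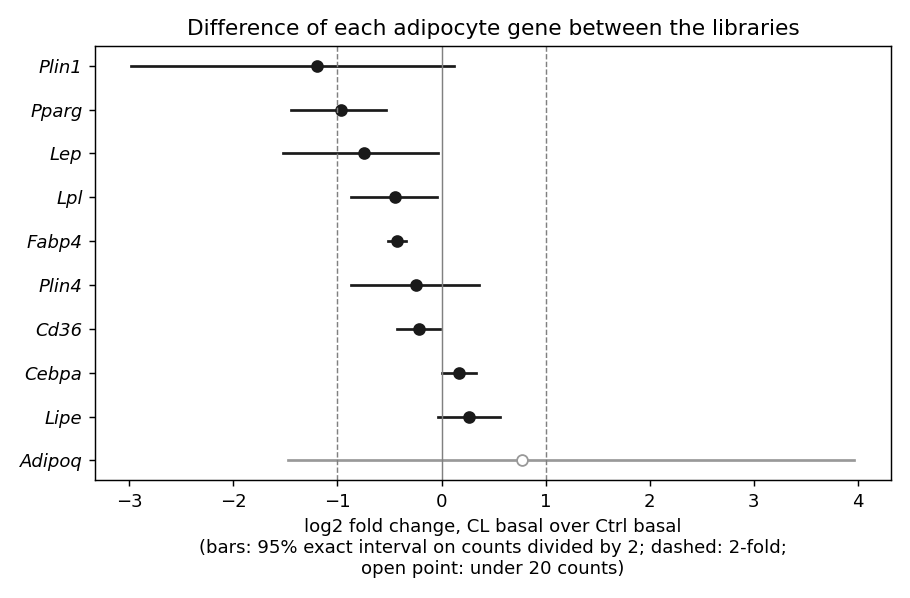
Log2 fold change of CL basal over Ctrl basal for each adipocyte gene, with 95% exact intervals on counts divided by 2; dashed lines mark 2-fold, and *Adipoq*, with under 20 counts, has an open point. The intervals of *Fabp4*, *Lpl*, *Cd36*, *Pparg* and *Lep* lie below 0, that of *Cebpa* begins at 0.01, and those of *Plin1*, *Plin4*, *Lipe* and *Adipoq* cross it.

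Counted over the 9 genes with enough reads, 7 had the lower value in CL basal (51.8% of all genes did) and 2 the higher. At least 2-fold lower was 1 of 9 (*Plin1*), and 4.79% of all 17356 genes were past the same threshold. At least 2-fold higher was 0 of 9, with 2.07% of all genes. At least 1.5-fold lower were 3 of 9 (*Plin1*, *Pparg* and *Lep*), with 11.7% of all genes. That background depends on abundance, from 28.4% of the genes with 20 to 99 counts, through 12.2% of those from 100 to under 1000, to 2.21% of those with at least 1000. *Plin1* belonged to the first class, *Pparg*, *Lep*, *Lpl*, *Plin4* and *Lipe* to the second, and *Fabp4*, *Cd36* and *Cebpa* to the third. The interval lay wholly below 0 for 5 of 9 genes, against 17.4% of all genes, and wholly above 0 for 1 of 9 (*Cebpa*, under some scalings), against 18.5%. In either direction this was 6 of 9, against 36.0%, and on counts as deposited 8 of 9, against 50.6%.

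The median log2 fold change of the 9 genes was -0.43, and that of all 17356 genes was -0.01. The median of the 9 is the value of *Fabp4* itself, and without *Fabp4* it was -0.35. The summed level moved less. The 10 genes summed to 6415 counts in CL basal against 7745 in Ctrl basal, or 167 and 202 CPM, a log2 ratio of -0.28 (-0.34 to -0.21). *Fabp4* made up 54.0% of these counts in CL basal (95% exact interval 52.3 to 55.8%) and 60.0% in Ctrl basal (58.5 to 61.6%). Without *Fabp4* the other 9 genes summed to 2950 and 3097 counts, and the log2 ratio was -0.07 (-0.18 to 0.03).

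**Figure D3:**
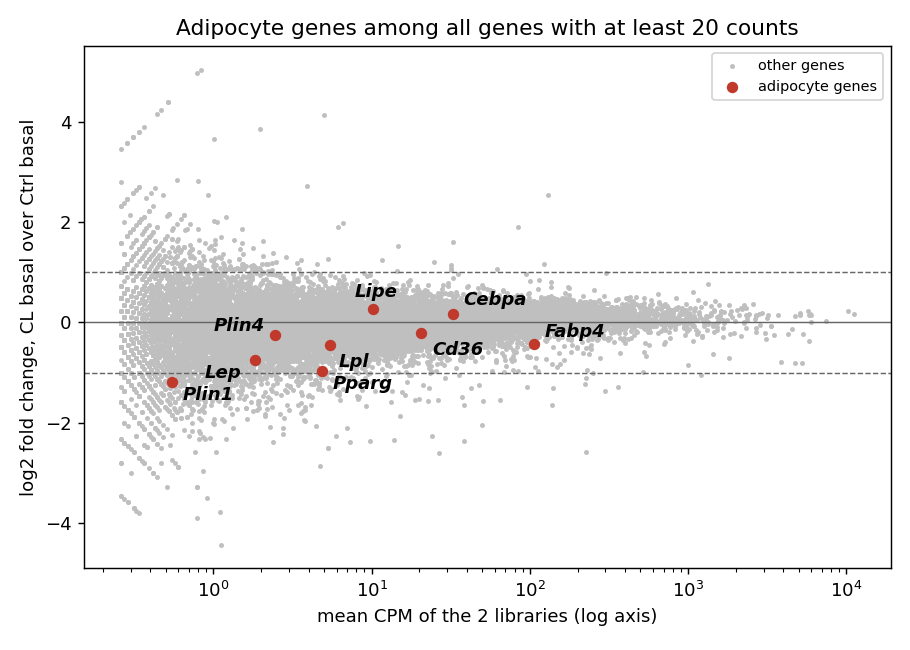
Log2 fold change of CL basal over Ctrl basal against mean CPM (log axis) for the 17356 genes with at least 20 counts (grey), with the 9 adipocyte genes among them labelled. *Plin1* lies in the wide cloud of scarce genes at -1.20, and *Fabp4* lies at -0.43, where genes of its abundance spread less.

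Other genes of adipocytes and of lipid metabolism were then counted. Of 14 further adipocyte genes, 8 had at least 20 counts. The other 6 had at most 14 counts over both libraries, among them the droplet protein *Cidec* (6 counts in CL basal against 8 in Ctrl basal), adipsin (*Cfd*, 4 and 6 counts) and resistin (*Retn*, 2 and 0 counts). *Adrb3*, the beta-adrenergic receptor of fat cells, was at 0 in both libraries. Of the 8 genes, 5 were lower and 3 higher in CL basal, 2 of them at least 2-fold lower and 0 at least 2-fold higher, with a median of -0.44. The 14 genes summed to 16.6 CPM in CL basal against 17.9 in Ctrl basal, a log2 ratio of -0.10 (-0.33 to 0.12), and -0.57 (-0.90 to -0.25) without *Acsl1*. The 3 with a higher value were *Acsl1*, a fatty acid CoA ligase and the gene of this list with the most counts (366 and 280 counts, log2 fold change 0.38, 0.06 to 0.71), *Thrsp* (0.73, -0.89 to 2.77) and *Aqp7* (0.16, -1.42 to 1.81). The 2 genes past 2-fold were *Car3*, a carbonic anhydrase abundant in fat (4 and 26 counts, log2 fold change -2.23, interval -5.89 to -0.56), and *Pck1*, an enzyme of glycerol synthesis in fat (4 and 22 counts, -2.0, -5.68 to -0.27). *Cidea*, a droplet protein of brown fat and of lactating mammary epithelium, had the highest TPM of this list, with 54 and 96 counts and a log2 fold change of -0.81 (-1.57 to -0.12). *Gpd1*, a glycerol phosphate dehydrogenase, was next by the mean TPM of the 2 libraries, at -0.28 (-0.88 to 0.30).

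Regulators of adipocyte differentiation had a median of -0.06 over 15 genes, with 1 at least 2-fold lower and 0 higher. *Cebpb*, which acts before *Cebpa* in adipogenesis, stood at 502 TPM in CL basal against 408 in Ctrl basal, or a log2 fold change of 0.28 (0.22 to 0.33). *Klf5*, also an epithelial factor, stood at 163 and 137 TPM and at 0.23 (0.13 to 0.32). The interval lay above 0 for 3 of the 15 and below 0 for 2, *Srebf1* (-0.34, -0.53 to -0.15), a regulator of lipid synthesis, and *Ppard* (-0.35, -0.49 to -0.20), a relative of *Pparg*. The gene past 2-fold was *Klf15*, with 7 and 16 counts and an interval of -3.54 to 0.77 around -1.0.

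Of 14 counted genes of droplets and triglyceride turnover, 0 were past 2-fold, and the interval lay below 0 for 3 and above 0 for 1. *Plin2*, the perilipin that most cell types use, had 2171 counts in CL basal against 3712 in Ctrl basal, or a log2 fold change of -0.78 (-0.89 to -0.67). *Pnpla2*, which encodes the triglyceride lipase that acts before *Lipe*, had 1444 counts in each library. *Plin5* had 0 and 1 counts.

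The 12 further genes of fatty acid uptake had a median of -0.08. Of these, 0 were past 2-fold, and the interval lay below 0 for 1, *Acsl5* (-0.26, -0.40 to -0.12), and above 0 for 2. *Fabp5*, the epithelial relative of *Fabp4*, stood at 80.7 and 79.5 TPM, with a log2 fold change of 0.00 (-0.09 to 0.09), an interval that does not overlap that of *Fabp4*. *Angptl4*, an inhibitor of lipoprotein lipase, was at 0.23 (0.15 to 0.31). *Gpihbp1*, which anchors lipoprotein lipase on capillary endothelium and was singled out after its values were seen, had 26 and 48 counts and a log2 fold change of -0.84 (-1.98 to 0.14). Among 6 receptors of adipokines and lipolytic signals, 0 were past 2-fold and the range was -0.09 to 0.18. The adiponectin receptor *Adipor1* was at 0.06 (-0.08 to 0.21).

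Markers of other cells that the sorted fraction could hold were measured beside these genes. In bulk RNA, fewer cells of a type and less RNA per cell cannot be told apart. The label was checked on 10 basal markers, which summed to 18455 CPM in CL basal against 17819 in Ctrl basal and had a median of 0.07. By TPM, *Krt14* (0.14, 0.13 to 0.15) and *Myh11*, the smooth muscle myosin (0.02, 0.01 to 0.03), led them. The interval lay below 0 for 4 of the 10 and above 0 for 6, from -0.23 for the basal keratin *Krt5* to 0.33 for the myosin kinase *Mylk*. Endothelial markers were present although CD31+ cells had been excluded: 12 of 12 had at least 20 counts, none was at 0, and they summed to 434 and 546 CPM, a log2 ratio of -0.33 (-0.37 to -0.29). Of the 12, 0 were past 2-fold, and the interval lay below 0 for 7 and above 0 for 1. *Cdh5*, the endothelial cadherin, was at -0.32 (-0.40 to -0.25), *Cldn5*, a tight junction protein of endothelium, at -0.30 (-0.46 to -0.14), and *Pecam1*, which encodes CD31 and was singled out as the gate's antigen, at -0.37 (-0.45 to -0.29). Per count of *Pecam1* there were 0.812 counts of *Fabp4* in CL basal against 0.845 in Ctrl basal, 0.0413 and 0.0436 counts of *Lpl*, and 0.172 and 0.155 counts of *Cd36*. The intervals of the log2 fold changes of *Fabp4*, *Lpl* and *Cd36* each overlapped that of *Pecam1*, so no direction is drawn from these ratios. Per count of *Adipoq* there were 347 and 930 counts of *Fabp4*, a ratio that rests on the 10 and 5 counts of *Adipoq*. The part of endothelial RNA in the values of the adipocyte genes was not tested.

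Macrophage markers, of which 9 of 12 had at least 20 counts, summed to 29.2 CPM in CL basal against 38.7 in Ctrl basal, or a log2 ratio of -0.41 (-0.57 to -0.25). Without *Cd14*, the gene with the most counts, it was -0.17 (-0.39 to 0.05). The interval lay below 0 for 2 of the 9, *Cd14* and the mannose receptor *Mrc1* (86 and 168 counts, -0.95, -1.54 to -0.42), and above 0 for 1. *Adgre1*, which encodes F4/80, had 10 and 7 counts, and *Fcgr1* had 4 and 0. By TPM, *Cd14* (-0.68, -0.92 to -0.44) and *Cd68* (-0.33, -0.75 to 0.07) led the list. Past 2-fold were *C1qc* (6 and 16 counts, -1.17), with an interval of -3.97 to 0.64 that crossed 0, and *Mpeg1* (88 and 28 counts, 1.58), with an interval of 0.75 to 2.63. Fibroblast and preadipocyte markers, with 10 of 10 counted and the interval below 0 for 6 and above 0 for 0, summed to 225 and 274 CPM, a log2 ratio of -0.29 (-0.35 to -0.23). *Dcn*, a matrix proteoglycan, was at -0.69 (-0.83 to -0.56), *Col3a1*, a fibrillar collagen, at 0.10 (-0.01 to 0.22), and *Lum*, another proteoglycan, was past 2-fold at -1.86 (-2.78 to -1.13). Luminal markers, with 12 of 12 counted and the interval below 0 for 11, summed to 2583 and 4610 CPM, a log2 ratio of -0.84 (-0.85 to -0.82), and 3 of them, *Wfdc18*, *Aldh1a3* and *Krt19*, were past 2-fold. The luminal keratins *Krt8* and *Krt18* were at -0.71 and -0.86. *Krt8* stood at 2082 TPM in CL basal and 3348 in Ctrl basal, above the basal keratin *Krt5* at 1301 and 1500, so luminal transcripts were abundant in both libraries. The part of luminal, macrophage or fibroblast RNA in the values of the adipocyte genes was not tested.

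**Figure D4:**
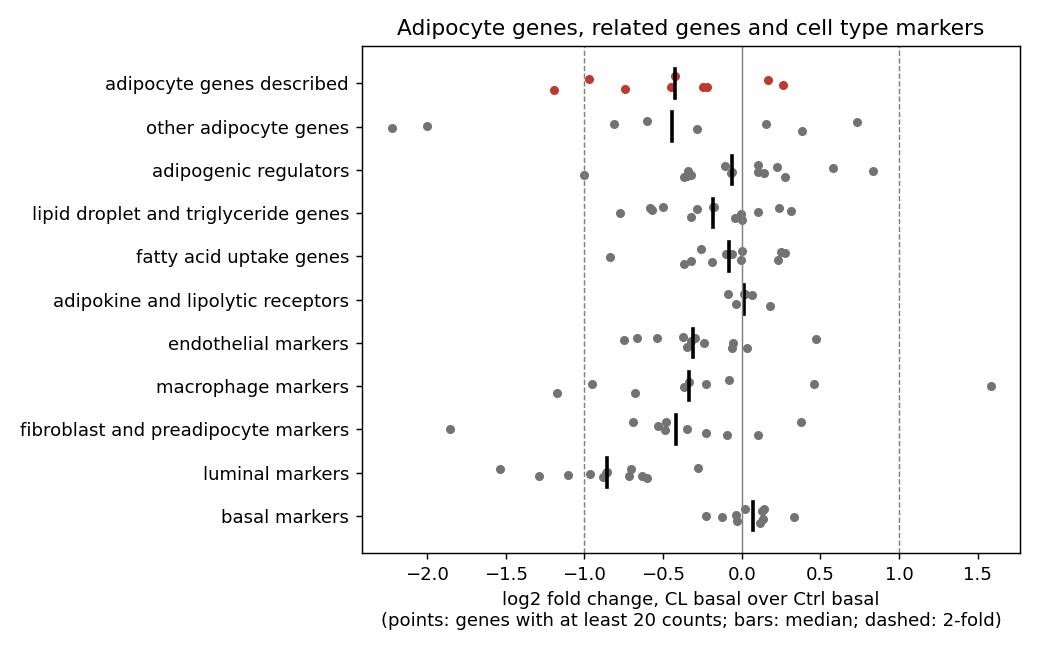
Log2 fold change of CL basal over Ctrl basal for each gene with at least 20 counts, by list, with the median as a bar; the 9 adipocyte genes are in red and dashed lines mark 2-fold. The median of the adipocyte genes is -0.43, beside -0.31 for endothelial, -0.42 for fibroblast and preadipocyte, -0.86 for luminal and 0.07 for basal markers.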

How the data were processed

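Total RNA of sorted mammary basal cells was sequenced on an Illumina HiSeq X 10, with 1 library per group. The authors deposited raw counts of reads for each gene, over annotated exons, in the layout of featureCounts. The submitters' processing notes name GRCm38 (mm10). The aligner, annotation release, use of strand and filters were not given in the sources used here. All 10 genes had the same start and end in GENCODE M21. A deposited ratio column and its log2 hold the authors' own comparison and were not used.

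Counts were scaled by TMM in edgeR 4.0.16 (R 4.3.3) (factors 0.9869 in CL basal, 1.0133 in Ctrl basal). Genes needed 20 counts in the 2 libraries together, and log2 fold changes used a prior count of 2. No model with replicates (edgeR or DESeq2) can be fitted to 1 library per group, so a threshold of 2-fold was read against its share over all genes. Intervals were Clopper-Pearson at 95% (scipy 1.17.1), tested on simulated data in which every read pair was counted as 2 mates. The deposited counts depart from that setting, since not all were even, so the simulation does not show the coverage of the intervals here. Named genes were the 10 members and, from each of 10 further lists (118 genes), the 2 with the highest mean TPM and up to 4 past 2-fold. A gene that this rule named in the list of receptors is not reported here. *Acsl1*, *Acsl5*, *Thrsp*, *Aqp7*, *Srebf1*, *Ppard*, *Mrc1*, *Krt5*, *Mylk*, *Cidec*, *Cfd*, *Retn*, *Adrb3*, *Plin5*, *Adgre1*, *Fcgr1*, *Gpihbp1* and *Pecam1* fall outside the rule and were chosen after their values were seen. Members and lists were chosen with earlier results of these data known. Alternatives were scaling by total counts, DESeq2 1.42.0 size factors or the upper quartile, prior counts of 0.5 and 5, no filter or at least 100 counts, thinning, removal of the trend on mean expression, a 1.5-fold threshold, and intervals on undivided counts.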

Additional observations from a re-analysis of the deposited data

How the results depend on the processing

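The log2 fold change of each of the 9 adipocyte genes with at least 20 counts kept its sign and stayed within its interval in all 80 values computed under the 9 alternative scalings, prior counts, filters, thinning and trend removal. *Pparg* ran from -1.01 to -0.89, *Plin1* from -1.29 to -1.04 and *Fabp4* from -0.50 to -0.42. The count of genes at least 2-fold lower was 1. It was 2 with scaling by total counts, which carried *Pparg* over the threshold, 0 with at least 100 counts, where *Plin1* drops out and 8 genes are left, and 3 at 1.5-fold. The median of -0.43 became -0.34 with no filter on low counts, where *Adipoq* enters as the 10th gene. The log2 ratio of the summed counts was -0.28, and it became -0.074 without *Fabp4*, the gene with the most counts. With intervals on counts as deposited, 8 of 9 genes had intervals without 0 (50.6% of all genes), against 6 of 9 on counts divided by 2 (36.0% of all genes). The difference is *Plin1* and *Lipe*. No paired analysis was possible because there was a single library in each group. Depth limits *Adipoq* and *Plin1*, with 15 and 42 counts over both libraries.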
